A study of Homo sapiens and Mus musculus with 6 samples.

Results

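The genes described here are CD80, CD86, CD83, ICOSLG, CD274, PDCD1LG2, ICAM1 and CD44, which encode costimulatory ligands, checkpoint ligands and adhesion molecules of antigen-presenting cells. Their promoter contacts were taken from the list of Promoter Capture Hi-C (Promoter CHi-C) calls of GM12878 by keeping every call in which one of the 8 symbols names the fragment at either end. This kept 93 of the 92929 calls, and each of the 8 genes had at least 1. Of all annotated human protein-coding genes, 65.5% had a GM12878 call under their own symbol. The same symbols, read without regard to case, gave 15 of 101841 calls in mouse embryonic stem cells (mESCs), all of them at Cd80 or Pdcd1lg2. Of all annotated mouse protein-coding genes, 63.6% had an mESC call under their own symbol. Icosl, the mouse name of ICOSLG, is not matched by the symbol and added 7 calls when it was included, for 22 in all.

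A T cell that recognises antigen needs further signals from the cell that presents it. CD80 and CD86 bind the activating receptor CD28 and the inhibitory receptor CTLA4, ICOSLG binds ICOS, and CD274 (PD-L1) and PDCD1LG2 (PD-L2) bind the inhibitory receptor PD-1. CD83 marks mature dendritic cells and activated B cells, ICAM1 is the ligand of the leukocyte integrin LFA-1, and CD44 is a receptor for hyaluronan. B cells, and the lymphoblastoid lines made from them by transformation with Epstein-Barr virus, are known for high levels of several of these ligands, whereas embryonic stem cells do not present antigen.

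GM12878 is a human lymphoblastoid line of 1 donor and was represented by 3 biological replicates. The mESCs were J1 cells of strain 129S4/SvJae, expanded on irradiated fibroblasts, with 2 biological replicates of Promoter CHi-C and 1 Hi-C library. No cells were treated or compared with a control, and no RNA was measured, so the cell types could not be checked against marker genes. Each cell type has a single set of calls made on all its replicates together, so no spread between replicates exists and no difference below was tested.

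In Promoter CHi-C, chromatin is cut with HindIII, ligated, and enriched for fragments that carry promoters, which are called baits. A call joins a bait to another fragment, the other end, which may itself be a bait. Its CHiCAGO score is a thresholded negative logarithm of a distance-weighted p-value, and only calls with a score of at least 5 are listed. The read count of a call is a mean over replicates, rounded to a whole number. Distances are between fragment midpoints.

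All 93 GM12878 calls were *cis*-chromosomal, with a median distance of 142.7 kb (range, 16.5–3030.8 kb) against 173.7 kb over all calls. Of these, 89 (95.7%) spanned less than 500 kb, against 91.6% of all *cis*-chromosomal calls. The median read count was 17 (range, 4–44) and the median score 7.03, beside 16 reads and a score of 6.62 over the whole list. A score of at least 10 was reached by 23 calls, or 24.7% (Wilson 95% interval, 17.1–34.4%), and by 16.3% of all GM12878 calls. The intervals cover counting error only, and neighbouring fragments are not independent observations. Bait-to-bait calls made up 48 of the 93, or 51.6% (41.6–61.5%), and 29.4% of all GM12878 calls. Calls in which a member is the other end are bait-to-bait by construction. Among the 67 calls made from the members' own baits the share was 32.8% (22.8–44.7%), an interval that holds the share of the whole list, and 20.9% (12.9–32.1%) scored at least 10. In mESCs, 4 of the 15 calls (26.7%; 10.9–52%) were bait-to-bait, beside 36.3% of all mESC calls, and 4 scored at least 10, beside 16.9% of all.

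By the names in the list, the 8 genes divided into a pair with many calls and a group with few. The bait named ICAM1 does not hold the annotated ICAM1 start, and the fragment that does had 4 calls, so by gene start only CD80 had many. ICAM1 had 42 calls, 28 of them made from its bait, and CD80 had 35, of which 24 were made from its bait. Of the listed GM12878 baits, 97.2% made fewer calls than the ICAM1 bait and 95.8% fewer than the CD80 bait. The CD86 bait made 6 and the CD274 bait 4, where the median listed bait made 3. CD44 had 3 calls, from 2 baits that made 2 and 1. CD83, ICOSLG and PDCD1LG2 had 1 call each. ICAM1 and CD80 together gave most of the 93 calls, so every summary over the 8 genes is mainly a description of these loci.

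**Figure D1:**
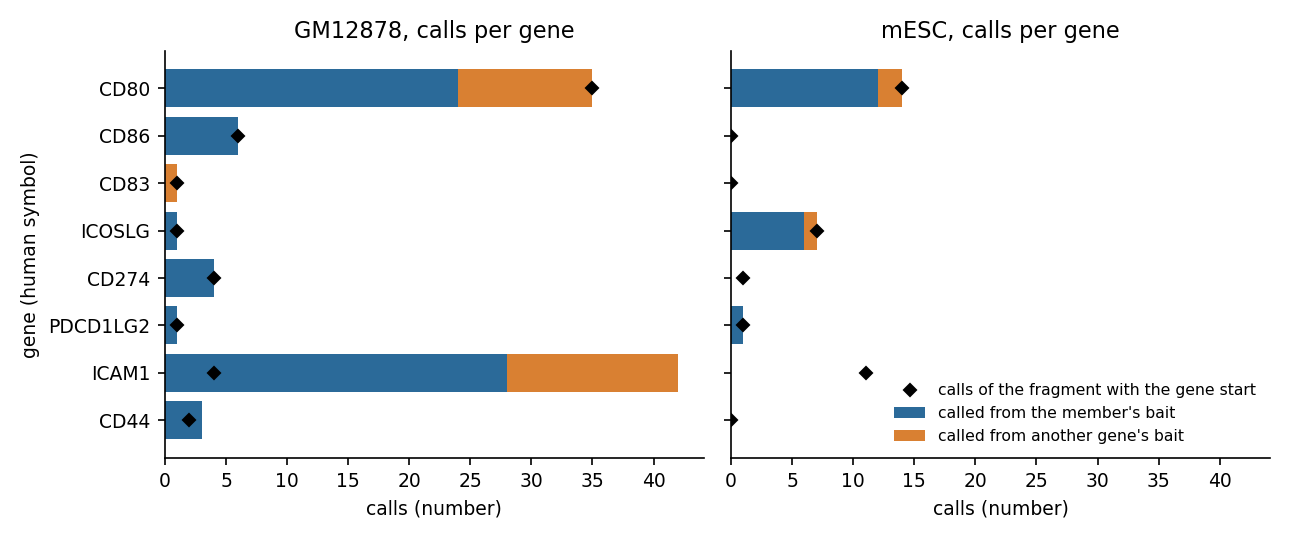
Number of calls (x axis) of each gene (y axis) in GM12878 (left) and mESCs (right); blue bars are calls from the gene's bait, orange bars calls from another gene's bait, and diamonds the calls of the fragment that holds the annotated gene start. ICAM1 (42) and CD80 (35) stand above the other genes in GM12878, and the diamonds of ICAM1 leave the bar in both cell types. The ICOSLG bar in mESCs is Icosl.

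The CD80 bait is a fragment of 26 kb, chr3:119253361-119279367 in hg19, and the gene runs on the minus strand from 119278461, which is 906 bases from the fragment's end. Its 35 calls reached 33 fragments, of which 11 were baits and 2 of these, POPDC2 and MAATS1, were called from both ends. Upstream of the gene lay 21 partner fragments and downstream 12. A transcription start was annotated in 18 of the 33 partners, an exon alone in 7, an intron alone in 4, and 4 lay between genes.

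The CD80 call with the highest score led to the bait of NR1I2, a nuclear receptor for xenobiotics, 232.6 kb upstream, with 12 reads and a score of 17.14. POPDC2, a membrane protein gene of the popeye family, was reached at 119 kb with 31 reads and scores of 16.02 and 7.43 from the opposite ends. ADPRH, which encodes an ADP-ribosylarginine hydrolase, was reached at 31.3 kb with 40 reads and a score of 15.54. The score and the read count thus ordered these calls differently, as the nearer call had more than 3 times the reads of the one to NR1I2.

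The densest part of the CD80 pattern was the stretch upstream around COX17, the copper chaperone of cytochrome c oxidase, and MAATS1, now named CFAP91. The unbaited fragment with a COX17 start (chr3:119393985-119395734) had 29 reads and a score of 15.09 at 128.5 kb. Its neighbour within COX17 had 23 reads and a score of 10.08, and the MAATS1 bait at 155.5 kb had 26 reads and scores of 9.28 and 6.95. The median read count of GM12878 calls between 100 and 200 kb was 17, with quartiles at 13 and 22, so these partners lay above the upper quartile. The other unbaited partners between them and just past MAATS1 had 16 to 18 reads, near that median.

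Nearer to CD80, 4 neighbouring fragments formed its longest unbroken run of partners (chr3:119288291-119322708), with 22 to 40 reads each, across ADPRH and the start of PLA1A, a phosphatidylserine phospholipase. The shortest call, at 17 kb with 44 reads and a score of 6.62, went to the exons at the 3′ part of CD80 itself. Downstream, the baits of TIMMDC1 (49.9 kb, 23 reads, score 9.41) and of POGLUT1 and TMEM39A (79.8 kb, 24 reads, score 6.32) were joined to CD80, as were those of ARHGAP31 (253.2 kb, score 5.7) and ARHGAP31-AS1 (225.2 kb, score 5.29). The downstream call with the highest score, 10.92 with 17 reads at 266 kb, was to an intron of B4GALT4-AS1. The longest calls led to the bait of the kinase gene GSK3B (545.6 kb, 7 reads, score 5.1) and to that of PARP15, an ADP-ribosyltransferase gene (3030.8 kb, 4 reads, score 5.88). The call to PARP15 was the longest of the 93 and rested on the fewest reads.

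Among baits, that of POGLUT1 and TMEM39A had the set of partners most like that of CD80, with 14 shared of 33 and 21 and a Jaccard index of 0.35. B4GALT4 followed with 14 shared and an index of 0.341, and ADPRH with 7 shared and 0.2. All lie within 311.7 kb of CD80, and baits that near to each other can reach the same fragments through the same stretch of chromatin.

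CD86 lies on the same chromosome, and its bait is chr3:121767421-121774241 in hg19. The gene starts at 121774209, 32 bases before the end of this fragment, so that nearly the whole gene falls outside the bait. All 6 calls were made from the CD86 bait to fragments that are baits as well, and none was called from the opposite end. POLQ, which encodes DNA polymerase theta, had the second highest score among the 93 calls, 25.12, with 12 reads at 504.8 kb. ILDR1 (19.7 kb, 17 reads, score 13.67) and the peptide transporter gene SLC15A2 (164.2 kb, 8 reads, score 10.19) also passed a score of 10. FAM162A and CCDC58 (331.9 kb, 6 reads, score 8.06), SNORD112 within CASR, the calcium-sensing receptor (190.8 kb, 7 reads, score 7.77), and EAF2 with IQCB1 (214.2 kb, 5 reads, score 5.03) were the others. In 5 of the 6 calls the read count lay below the median of GM12878 calls of the same distance class and kind, and the call to POLQ was the exception, with 12 reads against 8.

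The fragments along the body of CD86, which the list does not name after the gene, had a further 15 calls. Each came from another gene's bait, and 7 baits took part. POLQ was joined to 5 of these fragments with scores of 6.04 to 8.3 and 11 to 13 reads, about as many reads as its call with the CD86 bait. SNORD112 was joined to 3 and ILDR1 to 3, and CASR, SLC15A2, EAF2 with IQCB1, and FAM162A with CCDC58 to 1 each. RefSeq lists a second CD86 start, which its promoter sequence places at 121796631 in hg19, inside the unnamed fragment chr3:121793274-121797829. That fragment was the other end of 4 calls, from POLQ (score 6.9, 12 reads), EAF2 with IQCB1 (8.43, 15 reads), ILDR1 (6.33, 21 reads) and SNORD112 (5.01, 13 reads). The CD86 bait was joined to the same 4 baits. SLC15A2 and FAM162A with CCDC58 were joined to the CD86 bait and not to the fragment of the second start.

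**Figure D2:**
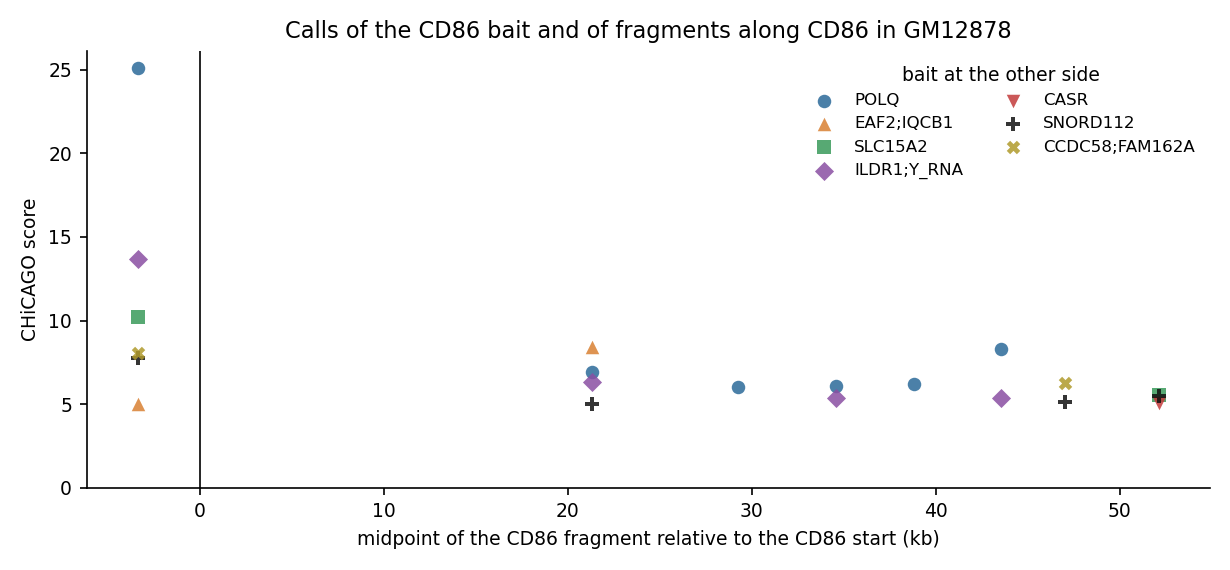
CHiCAGO score (y axis) of each call against the position of the fragment on the CD86 side, as the distance of its midpoint from the CD86 start in kb (x axis); each symbol is 1 call and its shape and colour give the bait at the other side. The 6 calls of the CD86 bait stand left of the start with scores of 5.03 to 25.12, and the 15 calls within the gene score between 5.01 and 8.43.

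The 250 bases before the second RefSeq start of CD86 are shown because this fragment, and not only the named one, is reached from 4 baits. They are given for the plus strand of GRCh38.p14 at chr3:122077534-122077783, the build of the RefSeq sequences, with the matches to the NF-kB consensus in capitals.
CD86 second start: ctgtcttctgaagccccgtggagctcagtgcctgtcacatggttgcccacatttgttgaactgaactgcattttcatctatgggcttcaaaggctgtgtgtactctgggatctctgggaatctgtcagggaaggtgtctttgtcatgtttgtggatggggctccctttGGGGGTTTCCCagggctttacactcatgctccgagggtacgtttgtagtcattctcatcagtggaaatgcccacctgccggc
The NF-kB consensus, searched on both strands with overlapping matches kept, occurred in 2075 of the 35116 RefSeq promoters of 300 bases (5.91%). Promoters of 7 of the 8 genes were matched, with 9 starts, and 2 of these held a match, the one printed and the second start of CD83. A match describes letters, not binding, which was not measured.

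CD83 and ICOSLG had a single call each. The fragment of CD83, chr6:14111981-14120116, was listed as an other end and never as a bait. Its call came from MCUR1, a regulator of mitochondrial calcium uptake, 301.1 kb upstream, with 7 reads and a score of 6.38. The ICOSLG bait, chr21:45659255-45661939, was joined to the bait of C21orf33, now named GATD3, 101.7 kb downstream, with 13 reads and a score of 5.85. Both calls had fewer reads than the median of like calls, 12 for CD83 and 17 for ICOSLG.

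The checkpoint ligand genes CD274 and PDCD1LG2 are neighbours on chromosome 9, and JAK2, the kinase that signals from cytokine receptors, lies upstream of both. The CD274 bait, chr9:5450404-5453647, had 4 calls with 7 to 9 reads and scores of 5.33 to 6.96, so none passed a score of 10. One led to the JAK2 bait, 470 kb upstream (9 reads, score 6.63). The other three went downstream to fragments without a bait, at 116.3 kb (9 reads, score 6.02), 133.2 kb (9 reads, 6.96) and 180.6 kb (7 reads, 5.33). The nearest of these holds an exon of PDCD1LG2, so a call joins the start of one PD-1 ligand gene to the body of the other. All 4 calls had fewer reads than the median of like calls, which was 12 for the call to JAK2 and 17 for the downstream calls.

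The JAK2 bait was also joined to fragments in the bodies of both ligand genes that carry neither name. The call to the fragment next to the CD274 bait had 13 reads and a score of 6.73 at 474.5 kb, and the call to a fragment within PDCD1LG2 had 12 reads and a score of 6.15 at 534.5 kb. The same CD274 fragment was also reached from the bait of KIAA1432, 173 kb away, with 15 reads and a score of 6.05. JAK2 was the only bait that shared at least 2 partners with CD274 (2 of 4 and 22; Jaccard index, 0.0833). The PDCD1LG2 bait, chr9:5489241-5514304, is 25.1 kb long and had 1 call, to a fragment 16.5 kb upstream with 38 reads and a score of 8.37. No call joined the CD274 bait to the PDCD1LG2 bait.

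The cut of the CD274 fragment lies close to the gene's start, which GENCODE places at 5450503. The RefSeq promoter matched hg19 with a start at 5450542, so how much promoter the bait holds depends on the annotation. The bait begins 99 bases upstream of the GENCODE start and holds only these before it. For this reason the bases from the HindIII site, in capitals, to the base before the GENCODE start are shown. They are hg19, plus strand, chr9:5450403-5450502.
CD274 cut to start: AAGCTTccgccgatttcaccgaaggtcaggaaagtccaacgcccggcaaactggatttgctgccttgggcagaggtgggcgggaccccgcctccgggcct

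The ICAM1 bait needs a remark before its values. The list names chr19:10360796-10381518 as CTD-2369P2.4, ICAM1 and MRPL4, and this fragment holds the start of MRPL4, a mitochondrial ribosomal protein gene. GENCODE places the first ICAM1 start at 10381769, 251 bases past the end of the fragment, and the RefSeq promoter matched hg19 with a start at 10381796. The 42 calls under the name ICAM1 are therefore calls of the fragment just upstream of the ICAM1 start, which ICAM1 shares with MRPL4, and the genes cannot be told apart there. The bases from the cut to the GENCODE start, hg19 plus strand, chr19:10381518-10381768, are shown because all but the first belong to the next fragment and not to the bait. The HindIII site is in capitals.
ICAM1 cut to start: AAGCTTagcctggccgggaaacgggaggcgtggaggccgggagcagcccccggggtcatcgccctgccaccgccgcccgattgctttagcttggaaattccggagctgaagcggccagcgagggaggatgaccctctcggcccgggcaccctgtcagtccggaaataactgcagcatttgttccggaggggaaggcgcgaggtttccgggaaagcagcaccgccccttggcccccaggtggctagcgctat

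The bait listed under ICAM1 reached 32 fragments, 17 upstream and 15 downstream, all within 333.7 kb. Of these, 15 were baits and 10 were called from both ends. A transcription start was annotated in 24 of the 32, and none lay between genes. The partners formed 14 runs of neighbouring fragments, and 14 of the 42 calls scored at least 10.

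The calls with the highest scores lay downstream, within a run of 6 neighbouring partner fragments, chr19:10467638-10515730, over TYK2, a Janus kinase of interferon and interleukin receptors, and CDC37, a co-chaperone of Hsp90. The TYK2 bait had 36 reads at 119 kb and scores of 27.15 and 19.59 from the opposite ends, and 27.15 was the highest score of the 93 calls. The 2 fragments before it in the run, with annotated starts of TYK2, had lower values, 17 reads with a score of 8.61 (101.6 kb) and 15 reads with 7.23 (109 kb). The next fragments, with exons and a start of CDC37, had 30 reads with a score of 23.9 (129.3 kb) and 27 reads with 21.35 (136.4 kb). At the far end, the bait of CDC37 and MIR1181 had 14 reads, with scores of 11.21 and 5.71. Just past the run, the bait of CDC37 and the phosphodiesterase gene PDE4A had 31 reads (scores 16.33 and 11.58 at 156.4 kb). The unbaited fragment beyond it had 16 reads and a score of 11.48.

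A similar group of partners lay upstream. The bait of EIF3G, a translation initiation factor, had 32 reads at 140.5 kb and scores of 14.47 and 10.22. The neighbouring bait of EIF3G, P2RY11 and PPAN had 31 reads and scores of 14.4 and 10.37. An exon fragment of DNMT1, the maintenance DNA methyltransferase, had 21 reads and a score of 14.6 at 132.2 kb. The DNMT1 bait was reached at 64.9 kb (17 reads, score 12.19). Farther out on this side were the baits of ANGPTL6 (22 reads, scores 9.55 and 7.62) and C19orf66, now named SHFL (20 reads, 8.52 and 6.2). The longest call, 333.7 kb upstream in OLFM2, had 8 reads and a score of 5.71.

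Closer to the bait, 37.1 kb upstream, the fragment of S1PR2, a sphingosine 1-phosphate receptor, and DNMT1 had 27 reads, the shortest call of the locus. The other ICAM genes were partners too. The bait of ICAM5 and ZGLP1 was reached at 37.8 kb with 19 reads and a score of 5.1, and that of ICAM3 and RAVER1 at 73.4 kb with 20 reads and scores of 7.1 and 6.24. The bait of RAVER1, FDX1L and ZGLP1 between them had 20 reads (9.63 and 5.16). The reads of these near partners lay below the medians of like calls, which were 33 under 50 kb and 21 from 50 to 100 kb. Downstream at 260.6 to 310.7 kb, the baits of S1PR5 (6 reads, score 6.83), KRI1 (13 reads, 6.95) and CDKN2D (13 reads, 6.03) ended the pattern.

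**Figure D3:**
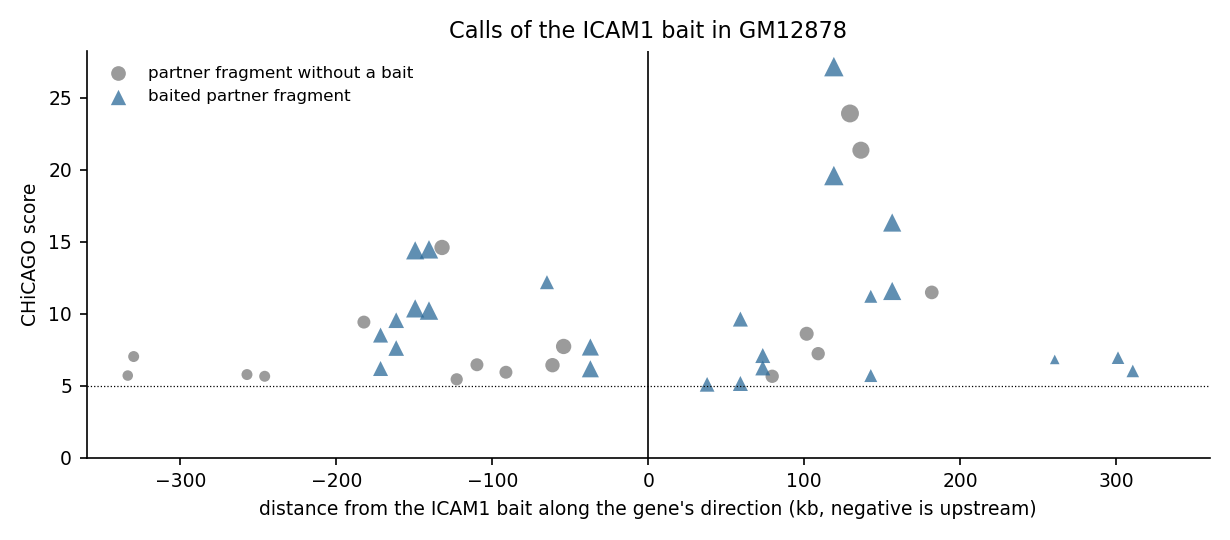
CHiCAGO score (y axis; the dotted line is the listing threshold of 5) of the 42 calls of the bait listed under ICAM1 against the distance of the partner along the gene's direction in kb (x axis); symbol size follows the read count, triangles are baited partners and circles are not. The scores rise on both sides, near TYK2 at 119 kb downstream and near EIF3G at 140.5 kb upstream, and are lower in between.

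The fragment that does hold the ICAM1 start, chr19:10381519-10397275, is listed without a name and only as an other end. It had 4 calls, from TYK2 (12 reads, score 8.03), C19orf66 (12 reads, 5.8), CDC37 with PDE4A (14 reads, 5.44) and CDKN2D (12 reads, 5.99). All 4 baits were also joined to the bait listed under ICAM1. On the far side, the ICAM4 bait overlaps the end of the ICAM1 gene and had 25 calls of its own, with 45 reads to TYK2 and scores of 32.18 and 19.33. By likeness of partners, EIF3G came first (25 shared of 32 and 40; Jaccard index, 0.532), ICAM4 next (17 shared of 32 and 19; 0.5), and the bait of EIF3G, P2RY11 and PPAN after it (15 shared; 0.366). The bait listed under ICAM1, the ICAM1 start fragment and the ICAM4 bait thus reached TYK2 and the bait of CDC37 with PDE4A alike, and which of the genes the contacts belong to cannot be told apart.

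CD44 was the other adhesion gene. GENCODE places its start in the bait chr11:35154929-35161467, and a second bait, chr11:35235672-35238465, carries its name within the gene. The list also names the first after RP4-607I7.1 and the second after RP1-68D18.4. The first also holds a start of CD44-DT and the second one of CD44-AS1, and the genes on each bait cannot be told apart. The first was joined to introns of PDHX, a subunit of the pyruvate dehydrogenase complex, 172.8 kb (10 reads, score 5.88) and 134.6 kb (12 reads, score 6.74) upstream. The second was joined to the bait of MIR1343, 279.2 kb upstream on a fragment with an exon of PDHX, with 8 reads and a score of 8.36. The MIR1343 bait was also joined to 2 unnamed fragments of CD44 (14 reads each, scores 5.49 and 7.32), and the bait of APIP and PDHX to 1 (13 reads, 5.79). All contacts of CD44 thus lay on the upstream side, over PDHX.

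Read counts fell with distance as in the whole list, and the genes took different places against it. ICAM1 had 17 of 42 calls above the median of like calls and 24 below, and CD80 had 15 above and 15 below. CD86, CD83, ICOSLG, CD274 and CD44 had 14 of 15 calls below it. PDCD1LG2 had its single call above, with 38 reads against 37.

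**Figure D4:**
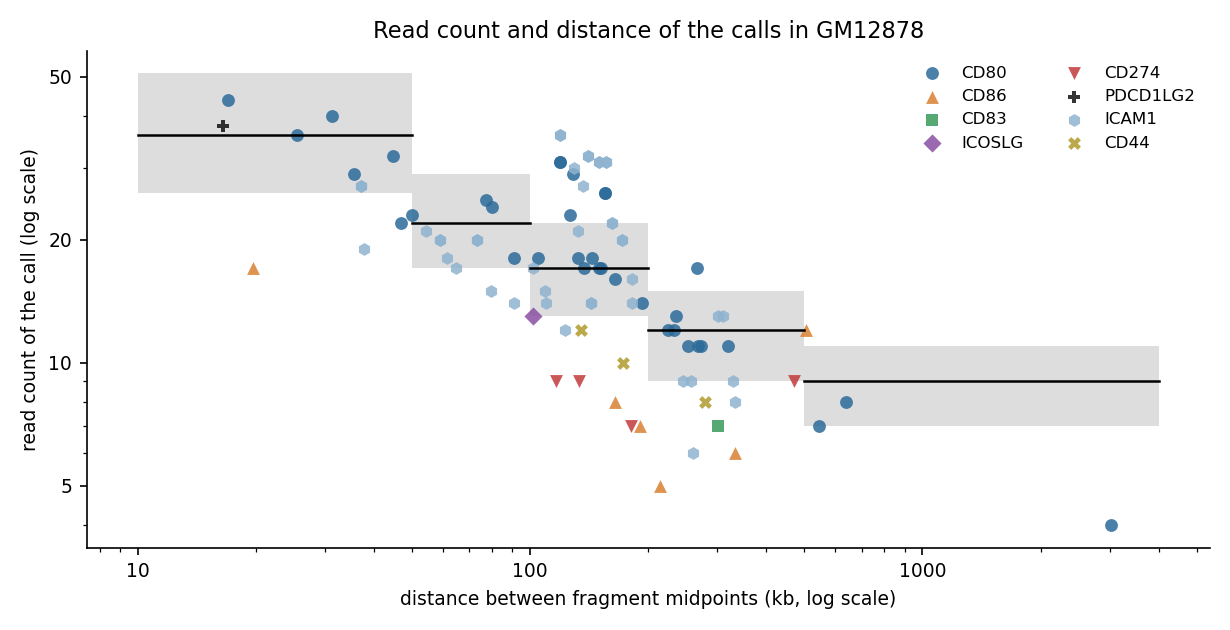
Read count (y axis, log scale) against distance in kb (x axis, log scale) of the GM12878 calls of the 8 genes, 1 symbol per call; black lines and grey bands are the median and quartiles of all GM12878 calls in each distance class. Most symbols of CD86, CD274 and CD44 lie below the black lines, whereas ICAM1 rises above the band between 100 and 200 kb, up to 36 reads.

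The CTCF core, the central letters of the motif of the insulator protein CTCF, was searched in all HindIII fragments on both strands. It was found in 8 of the 32 ICAM1 partner fragments (25%). Of listed other ends of the same length within 10%, a mean of 16.9% held it, which sums to 5.39 of the 32. For CD80, 3 of 33 partners (9.09%) held a match, against 8.64%. No partner of CD86, CD83, CD274, PDCD1LG2 or CD44 held one, in 15 fragments altogether, where the shares of like length sum to 1.86. The single partner of ICOSLG held a match, as did 19.4% of other ends of its length. CTCF binding was not measured. Matches of the ICAM1 locus are shown for the bait and for the 2 partners with the highest scores, in hg19 and read 5′ to 3′ on the strand of the match, with the core in capitals. The partner with the third highest score held none, and partners with low scores, such as the bait of ICAM5 and ZGLP1, held matches too. Of listed other ends of like length, 30.1% held a match for the ICAM1 bait (20.7 kb), 26.1% for the TYK2 bait (15.5 kb) and 6.64% for the CDC37 fragment (5.12 kb).
ICAM1 bait, minus strand, chr19:10360940-10360991: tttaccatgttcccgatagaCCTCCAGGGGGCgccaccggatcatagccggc
TYK2, plus strand, chr19:10489067-10489118: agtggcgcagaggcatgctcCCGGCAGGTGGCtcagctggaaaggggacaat
TYK2, plus strand, chr19:10495396-10495447: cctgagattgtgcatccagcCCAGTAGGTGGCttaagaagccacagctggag
CDC37, minus strand, chr19:10499710-10499761: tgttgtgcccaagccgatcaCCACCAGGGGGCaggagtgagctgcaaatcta
CDC37, minus strand, chr19:10501518-10501569: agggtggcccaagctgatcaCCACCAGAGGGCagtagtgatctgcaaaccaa

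In mESCs, Cd80 had 14 calls, 12 made from its bait of 4.78 kb, chr16:38458730-38463507 in mm9, and 2 made to it, and 85.2% of listed mESC baits made fewer than 12. The 14 calls reached 12 fragments, 10 of them upstream. The highest score, 15.64 with 22 reads, was at an unbaited intron fragment of Cox17, 103 kb upstream. The Cox17 bait followed with 27 reads and scores of 13.69 and 10.26 at 114.5 kb, and the bait of 4932425I24Rik with 23 reads and scores of 11.22 and 5.82 at 121.4 kb. Other partners lay at Popdc2 (97.5 kb, 15 reads, 8.71), at Pla1a (42.5 kb, 16 reads, 5.13) and within Cd80 (11.7 kb with 43 reads and 21.9 kb with 28 reads). The shortest Cd80 call, to a fragment between genes 6.29 kb upstream, had the most reads, 66, and a score of 6.13. The longest, at 154.5 kb, went to an exon of 4932425I24Rik with 9 reads and a score of 5.13.

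Most partners lay upstream both for CD80 in GM12878 (21 of 33) and for Cd80 in mESCs (10 of 12). The sides differed downstream, where CD80 had 12 partners and Cd80 had 2, both within Cd80 itself. The coding sequence of 4932425I24Rik matched human CFAP91 best, the gene listed as MAATS1, with 82.1% identity over 2109 aligned bases. The 4 mouse genes with a start or an exon in a Cd80 partner, Cfap91, Cox17, Pla1a and Popdc2, all had their human counterpart at a CD80 partner. They made up 30.8% of the 13 genes there that were matched to mouse, by symbol or, for CFAP91, by sequence. Human genes without a mouse gene of the same symbol, such as TIMMDC1, were not counted among the 13, so the share depends on naming. The COX17 start lies 117.8 kb upstream of the CD80 start in human and 111.9 kb upstream in mouse, and that of CFAP91 143.4 kb and 116.8 kb. The starts of ADPRH, PLA1A, POPDC2, COX17 and CFAP91 follow in the same order upstream of CD80 in both species. Whether this order accounts for the shared partners was not tested. The comparison of partner genes was chosen after the values had been seen, and how many other baits share partners between the species was not tested. The other 9 genes, among them ADPRH, ARHGAP31, B4GALT4, GSK3B and NR1I2, were at a partner of the named bait in GM12878 only. In mESCs the Adprh bait was nevertheless joined to unnamed fragments along Cd80 (29 reads, score 6.69, and 26 reads, score 8.49). Its partners were also those most like the partners of Cd80 (9 shared of 12 and 17; Jaccard index, 0.45).

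**Figure D5:**
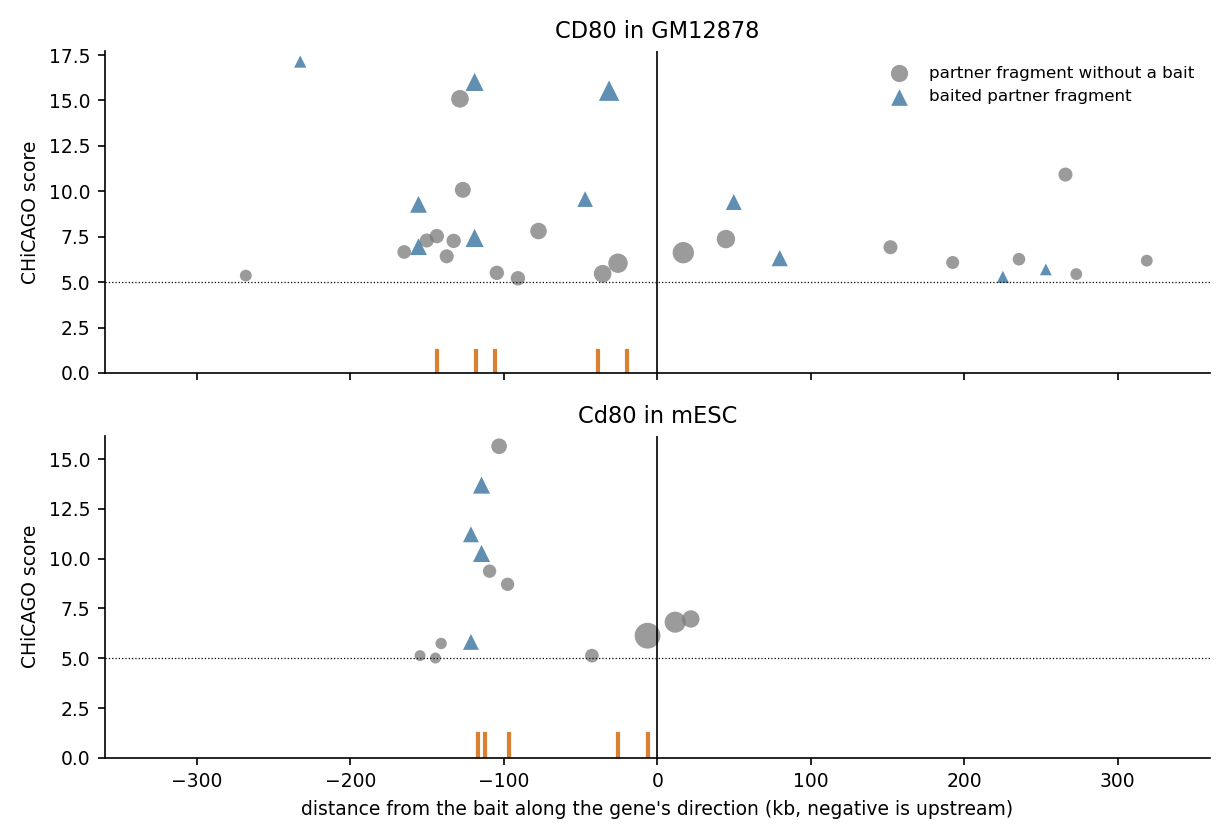
CHiCAGO score (y axis; the dotted line is the listing threshold of 5) against distance from the bait along the gene's direction in kb (x axis) for CD80 in GM12878 (upper) and Cd80 in mESCs (lower), with symbol size after the read count; orange ticks are the starts of CFAP91, COX17, POPDC2, PLA1A and ADPRH and their mouse counterparts. Both genes have calls near COX17 on the upstream side, and 3 GM12878 calls beyond 500 kb are not drawn.

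Icosl had 7 calls with 6 fragments, 6 made from the bait chr10:77524527-77541211 and 1 made to it. This bait also holds an exon of Dnmt3l. The Dnmt3l bait had the set of partners most like that of Icosl (2 shared of 6 and 2; Jaccard index, 0.333). A run of 4 neighbours, chr10:77615267-77633656, ended at the bait of D10Jhu81e, which was called from both ends at 98.9 kb with 29 reads and scores of 10.71 and 7.59. The coding sequence of D10Jhu81e matched human GATD3 best, with 85.1% identity over 730 bases, and GATD3 is the gene listed as C21orf33. The only ICOSLG call of GM12878 and the highest scoring Icosl call of mESCs therefore led to the same gene. Its start lies 107.8 kb downstream of ICOSLG in human and 100.4 kb downstream of Icosl in mouse. As for CD80, this comparison was chosen after the values had been seen, and sharing at other baits was not tested. One fragment of the run held a CTCF core match.
Icosl partner, minus strand, mm9 chr10:77622866-77622917: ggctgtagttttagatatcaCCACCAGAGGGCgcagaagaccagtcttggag

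Pdcd1lg2 had 1 call in mESCs, to its own intron 4.84 kb downstream, with 77 reads and a score of 5.06. The symbols of the other genes did not appear, but names alone do not settle this. The start of mouse Icam1 (20820404) lies in a bait of 23 kb, chr9:20805688-20828729, which the list names after Mrpl4. That bait had 11 calls to 9 fragments, with the highest score, 13.6, at the bait of SNORD105.1 (16 reads, 121.4 kb) and further calls to Eif3g (11.01) and S1pr2 (8.99, 21 reads). At its partners, 6 genes had a human gene of the same symbol, Dnmt1, Eif3g, Ppan, Raver1, S1pr2 and Snord105. All 6 also had a start or exon at a partner of the human bait listed under ICAM1. They were 35.3% of the 17 genes there with a mouse gene of the same symbol. Both baits carry the name of MRPL4. The S1PR2 start lies 39.8 kb upstream of the ICAM1 start in human and 39.2 kb in mouse, and that of EIF3G 151.2 kb and 117.4 kb. Whether the place of these genes accounts for the shared partners was not tested. This comparison of partner genes too was chosen after the values had been seen, and sharing at other baits was not tested. The start of Cd274 lies in a bait named 5033414D02Rik, with 1 call, from Insl6 at 39.9 kb (11 reads, score 8). The fragments that hold the starts of Cd86, Cd83 and Cd44 are not in the mESC list at all, and whether they were captured was not known. By gene start instead of name, 5 of the 8 genes had calls in mESCs, with 34 calls, and all 8 in GM12878, with 54. Of all annotated protein-coding genes, 72.8% in mESCs and 70.1% in GM12878 had a call at the fragment of their start.

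The mESC Hi-C library was set beside these calls. None of the 15 mESC calls lay in a pair of 25-kb bins with an FDR under 0.05 (0%; 0–20.4%), and 7 lay in a listed pair of any FDR. The share over all mESC calls was not computed, so this count does not set these genes apart from others. The paper reports that most short-range Promoter CHi-C contacts fell outside the Hi-C pairs called with HOMER. The pair with the lowest FDR at a member's start joined Cd80 to the Cox17 and 4932425I24Rik bins, with 19 read pairs where 5.44 were expected and an FDR of 0.125. For Icosl, 11 read pairs were seen where 2.47 were expected, with an FDR of 0.945. No member start was in a pair that passed an FDR of 0.05.

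Among 24 other genes of the same pathways, 20 (83.3%) had a call in GM12878 and 12 (50%) in mESCs, by name. Of all protein-coding genes, 65.5% in GM12878 and 63.6% in mESCs had a call under their own symbol. The mouse annotation has a protein-coding gene under 19 of the 24 symbols, and the other 5 count as without a call. Those with the most calls in GM12878 were ITGAL, the alpha subunit of LFA-1, with 42, SELPLG, the ligand of P-selectin, with 27, and ICAM2 and ICAM4 with 25 each. Of the receptors, CD28 had 2 calls and CTLA4 had 1, while ICOS and PDCD1 had none. CMTM6, which keeps PD-L1 at the cell surface, had 14 calls, and CIITA, the activator of MHC class II genes, had 3. In mESCs, Btn2a2, a butyrophilin gene, had the most with 79, then Icam2 with 35 and Itgal with 13. ICAM4, ICAM5 and the bait listed under ICAM1 had their highest GM12878 score at the same partner, TYK2, whereas ICAM3 had it at ICAM4 and ICAM2 at SNORA76 with SNORD104.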

How the data were processed

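Promoter CHi-C of GM12878 (3 replicates) and mESCs (2 replicates) and Hi-C of mESCs (1 library) were used. The authors aligned reads with HiCUP and Bowtie 1.1.0 to hg19 or mm9 and called contacts on all replicates of a cell type together with CHiCAGO. The deposited read count was averaged by the authors over replicates with size factors as weights and rounded to a whole number. It is therefore not raw, and no count model was used. The deposited CHiCAGO score is a soft-thresholded negative logarithm of a weighted p-value, listed from 5 upward. The Hi-C pairs were called by the authors with HOMER 4.7 in bins of 25 kb (under 1 Mb) and of 1 Mb, and the deposited FDR is a p-value adjusted by the Benjamini-Hochberg method. The deposited Hi-C count of read pairs per bin pair is not normalised, and the expected count beside it was computed by HOMER. A further 10 value columns of the Hi-C lists were not used.

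Calls were kept where a symbol of column 4, split at separators and freed of transcript suffixes, named one of the 8 genes. Where both baits of a pair called each other, the lists hold 2 calls. Members and gene lists were chosen with earlier results of these data known. For each member all calls were summarised, with the calls of the highest score and read count and the shortest and longest distance, the genes that share or are joined to its bait, up to 3 baits with the highest Jaccard index of partners (at least 2 shared), and, of the pathway list, the 3 genes with the most calls. Like calls are those of the same distance class (edges at 50, 100, 200 and 500 kb) and the same kind, bait-to-bait or not. HindIII fragments, gene starts and CTCF core matches were read from hg19 and mm9 with GENCODE v44lift37 and vM1, and all listed fragments were fragments of this digest. RefSeq promoters (GRCh38.p14) were used for the NF-kB consensus. The coding sequences of 4932425I24Rik and D10Jhu81e were matched to human transcripts with blastn 2.17.0, and all other genes were matched between species by symbol. The reading of line pairs was tested on simulated data. Depth per replicate is not given by the call lists, and the number of calls sets the width of the Wilson intervals (95%). Alternatives were a score threshold of 10, each pair counted once, the browser list, calls from the members' baits alone, merged neighbouring fragments and Icosl added, and, chosen after the data were seen, the fragment with the gene start.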

Additional observations from a re-analysis of the deposited data

How the results depend on the processing

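No paired analysis was possible because the calls were made on all replicates of a cell type together, and leaving out replicates could not be run for the same reason. The number of GM12878 calls, 93, became 23 at a score threshold of 10 and 54 with neighbouring partner fragments merged or with the fragment of the gene start, and the mESC number, 15, became 4 at a threshold of 10 and 34 by gene start. At a threshold of 10, 3 members (CD80, CD86 and ICAM1) kept a call in GM12878 and 1 (Cd80) in mESCs, and by gene start 5 had one in mESCs. The median GM12878 distance moved from 142.7 to 167.5 kb after merging. The bait-to-bait share in GM12878, 51.6%, was 69.6% at a threshold of 10 and 32.8% from the members' baits alone, and in mESCs, 26.7% became 75% (of 4 calls) and, after merging, 10% (of 10). The other 34 values of these summaries stayed within 1.5 times the main count or within its 95% interval. Of the values for single genes 18 moved, with ICAM1 at 14 calls after merging, 14 at a threshold of 10 and 4 at its start fragment. Whether the calls that a threshold of 10 removes would recur in single replicates was not tested, since contacts on few reads, such as that of CD80 with PARP15 (4 reads), rest on the pooled data.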

Other observations

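In mESCs the Icam4 bait had 12 calls, among them S1pr2 (30 reads, score 19.7), Eif3g (17 reads, 16.51) and Cdc37 (17 reads, 13.57), and its highest score was 25.51 at the bait of SNORD105.1. No mESC call of this bait or of the Mrpl4 bait led to a fragment with the Tyk2 start, although the Tyk2 start lies 111.4 kb downstream of the Icam1 start in mouse and that of TYK2 109.5 kb downstream in human. Fragments close to the Tyk2 start were reached, chr9:20936119-20938006 from the Mrpl4 bait (7 reads, score 7.07), 4.33 kb from that start, and chr9:20938007-20942489 from the Icam4 bait (8 reads, score 7.51), 6.22 kb from it. Tyk2 itself was a listed mESC bait with 5 calls, none of them to a fragment that overlaps Icam1 or Icam4, and a highest score of 6.39.

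Fragments along mouse Cd80 that carry no name were joined to Cox17 as well. The fragment chr16:38480025-38486054, with exons of Cd80, was reached from Cox17 with 30 reads and a score of 24.63 and from 4932425I24Rik with 25 reads and a score of 15.58. The calls from the same baits to the Cd80 bait had scores of 10.26 and 5.82, and those from the Cd80 bait to them 13.69 and 11.22. Their read counts, 27 and 23, were close to those of the exon fragment. Bait-to-bait pairs have higher expected counts, so the scores alone do not show a stronger contact of the exon fragment.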
